A study of Mus musculus with 6 samples.

Results

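A set of 10 genes of the ATF4 arm of the integrated stress response was followed in mouse embryonic stem cells, the cultured pluripotent cells of the early embryo. They were chosen by name, as ATF4, its partners and the amino acid response genes it is known to switch on, and all 10 were found among the 23999 gene symbols of the count table and all 10 passed the filter on low counts. The cells were labelled as carrying a floxed element called -5 together with an exogenous mouse Nanog copy tagged with V5, in both groups. One group received ethanol as vehicle for 6 days (n = 3) and the other 4OHT, an active form of tamoxifen often used to activate Cre recombinases fused to an oestrogen receptor, for the same 6 days (n = 3). The labels do not name a Cre, a clone or separate cultures behind the replicate numbers, so p-values measure the spread between these samples, which may be technical. The series title concerns a Nanog enhancer, and the comparison of 4OHT with vehicle asked which genes differ in cells with this floxed element after the ligand. No cells without the floxed element received 4OHT. Effects of the ligand itself, of any change at the element and of a changed Nanog level therefore cannot be told apart.

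The integrated stress response starts when one of several kinases, each sensing its own stress, phosphorylates the translation factor eIF2. General protein synthesis then slows, while the ATF4 messenger RNA is translated more because of short upstream reading frames in its leader. ATF4 protein pairs with C/EBP family partners and switches on genes for amino acid synthesis, amino acid import, redox balance and, under lasting stress, cell death. Much of the control of ATF4 acts on translation, so messenger RNA levels report on the transcripts of ATF4 and its targets and not on ATF4 protein.

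Polyadenylated RNA was sequenced, and the libraries held between 20030423 and 55194644 counts, except for 4OHT replicate 2 with 515388. One read there was worth 1.91 CPM (the read count scaled to library size with TMM factors), against 0.0183 to 0.0498 CPM in the other 5 libraries. Nanog stood at 631, 660 and 641 CPM in vehicle replicates 1, 2 and 3 and at 177, 172 and 194 CPM in the 4OHT replicates, a fold of 0.286 (95% interval 0.261 to 0.313, edgeR adjusted p = 1.6e-13), and reads of the tagged copy can fall under the same symbol. A list of 10 pluripotent stem cell markers was detected in every library, with a summed level of 6824 to 7033 CPM in vehicle and 6112 to 6503 CPM in 4OHT cells, and with Sox2 called higher and Nanog, Pou5f1 and Fgf4 lower. DESeq2 called 0 of this list higher and 3 lower. Without Nanog the sums of the other 9 overlapped, at 6193 to 6374 CPM and 5935 to 6309 CPM. The 10 primitive endoderm markers summed to 148 to 163 CPM in vehicle and 252 to 304 CPM in 4OHT cells, and all 10 were called higher. Lama1 (94.3 ± 6.11 to 135 ± 9.54 CPM) and Col4a1 (52.4 ± 1.89 to 84.5 ± 8.44 CPM) made up most of both sums. The log2 fold changes of the list ran from 0.54 for Lama1 to 5.24 for Cubn (edgeR). DESeq2 called 8 of these 10 higher, and 3 had no read in 4OHT replicate 2. The 10 markers of the state resembling the cleavage-stage embryo summed to 9.24 to 9.96 CPM and 29.0 to 30.5 CPM, and all 10 were called higher as well. DESeq2 called 6 of the 8 it tested higher, and 1 of the 10 had no read in 4OHT replicate 2. The 10 fibroblast (feeder cell) markers summed to 24.9 to 26.4 CPM and 14.5 to 19.1 CPM. Only 4 of them could be tested, 2 had no read in any library, and 1, Thy1, was called lower. Thy1 alone went from 15.9 ± 0.520 to 6.67 ± 0.874 CPM and so made up most of the fall in this sum. Of the other tested markers, Col1a1 and Col1a2 had log2 fold changes of 0.099 and 0.90 and Fbn1 of -0.26, none of them called (edgeR). The part of these shifts in cell markers in the results below was not tested.

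Of the 10 genes, Atf4 and Atf5 were called higher in 4OHT cells, none was called lower and 8 did not pass the test (edgeR's quasi-likelihood test, adjusted p at or under 0.05 over all 14458 tested genes). The same test called 22.4% of all tested genes, 11.9% higher and 10.5% lower, so the share of 20.0% among the 10 genes was near the background. At an unadjusted p under 0.05 the counts were again 2 higher and 0 lower, beside 2500 and 2368 of the 14458 genes. DESeq2 called 1 higher and 0 lower, beside 551 and 388 of 13673 genes (6.87% in either direction). The median log2 fold change of the 10 was 0.024, beside -0.0026 for all tested genes, and no member changed by as much as 1.5-fold with a call. In these bulk samples, a change in the number of cells of one type and a change in RNA per cell cannot be told apart.

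**Figure D1:**
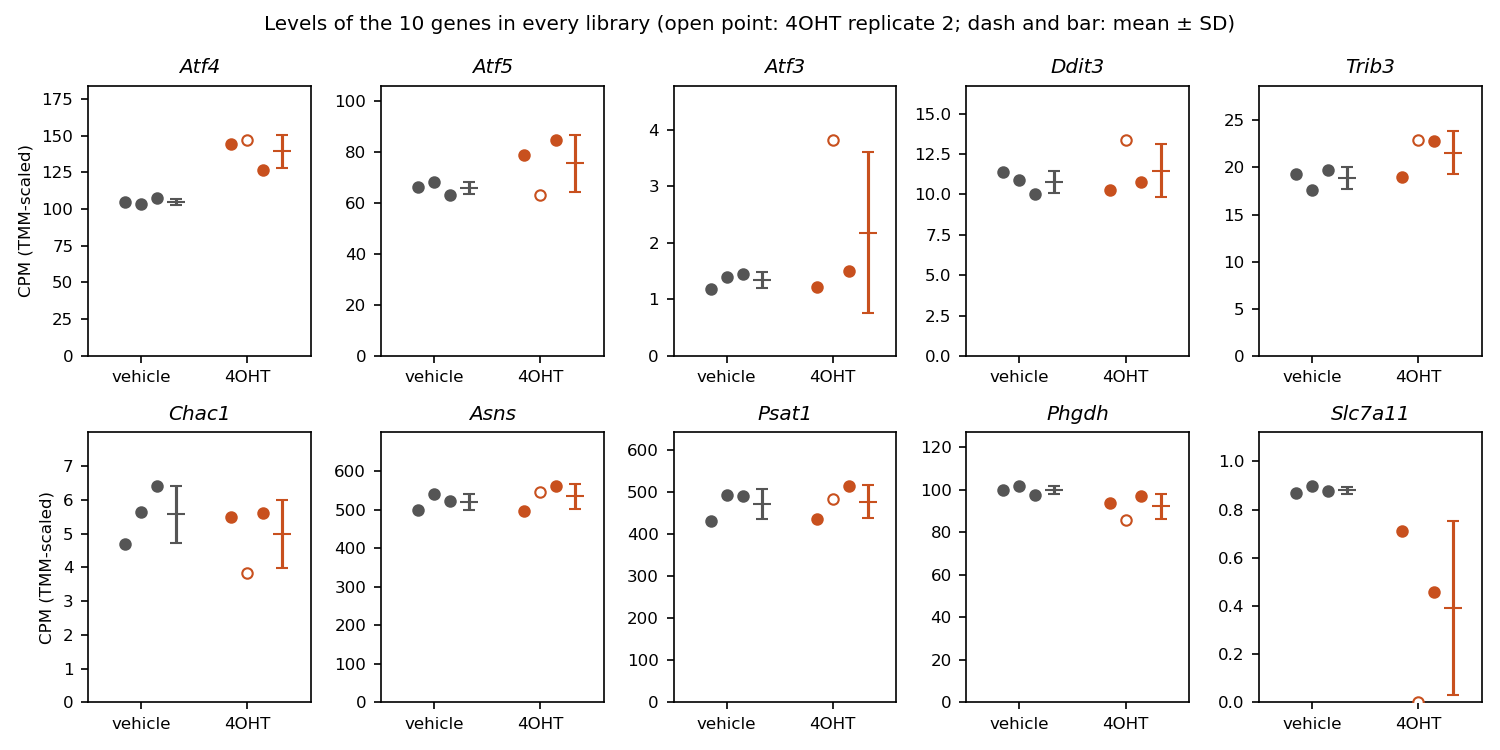
Level of each of the 10 genes in every library, in TMM-scaled CPM on linear axes that start at 0. Points are single libraries (grey for vehicle, orange for 4OHT, open for the shallow 4OHT replicate 2), and the dash with its bar is the mean ± SD over the 3 libraries of a group. All 3 Atf4 points of 4OHT cells, from 126 to 147 CPM, lie above the vehicle points, from 103 to 107 CPM, while the Asns, Psat1, Trib3, Ddit3 and Chac1 points of the groups mix.

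The promoters of 5 of the 10 genes hold the short composite element through which ATF4 with a C/EBP partner is known to bind, and it is shown here because it is the sequence that members of the set share. The search covered RefSeq windows from 250 bases before to 50 bases after each start (build GRCm38.p6, 12 windows for the 10 genes, all matched by symbol). The letters searched were TGATGNAA on both strands, whose reverse complement is TTNCATCA. Capitals mark the element, read 5′ to 3′ along the gene's own strand.
Atf3: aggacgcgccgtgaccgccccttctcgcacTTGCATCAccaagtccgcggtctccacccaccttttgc
Trib3: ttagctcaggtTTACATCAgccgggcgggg
Chac1: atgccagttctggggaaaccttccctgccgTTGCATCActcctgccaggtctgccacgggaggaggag
Asns: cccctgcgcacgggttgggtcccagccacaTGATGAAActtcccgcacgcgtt
Slc7a11: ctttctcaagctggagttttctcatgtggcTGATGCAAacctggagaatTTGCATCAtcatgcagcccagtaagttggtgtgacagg

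The Atf3 stretch is chr1:191183406-191183473 on the minus strand, with the element starting 110 bases before the start. The Trib3 stretch is chr2:152344028-152344057 on the minus strand, and its element begins at base 15 of the transcript. The Chac1 stretch is chr2:119351019-119351086 on the plus strand, with the element starting 193 bases before the start. The Asns stretch is chr6:7693210-7693262 on the minus strand, with the element starting 23 bases before the start. The Slc7a11 stretch, chr3:50443623-50443709 on the minus strand, holds 2 copies facing opposite ways, 66 and 47 bases before the start. The same letters were found in 3.97% of all 32851 windows and in 2.72% of the 10646 tested genes with a window. Among those 290 tested genes 40 were called higher and 31 lower (24.5%), beside 21.8% of tested genes with a window. The palindromic cyclic AMP response element TGACGTCA had no match in the members' windows. It was found in 1.79% of all windows and for 3.51% of tested genes with a window. The antioxidant response element core TGACNNNGC matched in the windows of Asns and Phgdh. It was found in 12.4% of all windows and for 17.0% of tested genes with a window. The 5 members with the composite element were all among the 8 not called. A match is a description of letters in these windows, and for the other members their absence says nothing about binding.

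Atf4 encodes the basic leucine zipper (bZIP) transcription factor at the centre of the response. Its level was 104, 103 and 107 CPM in vehicle replicates 1, 2 and 3 and 144, 147 and 126 CPM in 4OHT replicates 1, 2 and 3. Every 4OHT library lay above every vehicle library, which held for 14.7% of all tested genes. The means were 105 ± 2.02 CPM (SD, n = 3) and 139 ± 11.3 CPM (SD, n = 3), a 1.30-fold rise (log2 fold change 0.38, SE 0.06, 95% interval 0.24 to 0.51, edgeR adjusted p = 0.000197). A higher log2 fold change was found in 9.25% of all tested genes. The shallow library counted 77 Atf4 reads, with a 95% Poisson interval for counting error of 116 to 184 CPM, above the vehicle values. DESeq2 called Atf4 as well, with a log2 fold change of 0.38 and an adjusted p of 0.000952.

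Atf5 encodes a second bZIP factor, which like ATF4 is translated more when eIF2 is phosphorylated. It stood at 66.1, 68.0 and 63.2 CPM in vehicle cells and at 78.8, 63.0 and 84.6 CPM in 4OHT cells. The deep 4OHT replicates 1 and 3 lay above all vehicle libraries, and the shallow replicate 2 lay just below them on 33 reads (Poisson interval 43.4 to 88.5 CPM). The share of all tested genes whose deep 4OHT libraries lie apart from the vehicle libraries was not counted, here or for the genes below. The fitted rise was 1.23-fold (log2 fold change 0.29, SE 0.07, 95% interval 0.15 to 0.43, edgeR adjusted p = 0.00287). DESeq2 did not call it (log2 fold change 0.27, adjusted p = 0.122). On the GRCm38 gene models, 4.11% of the Atf5 exon bases overlap the opposite-strand gene Nup62, which held 61276 counts against 13463 for Atf5, and no strand setting is given in the sources used here. Nup62, a nuclear pore gene, had a fold of 0.960 (95% interval 0.882 to 1.04, edgeR adjusted p = 0.521).

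Atf3 encodes a stress-induced bZIP factor that ATF4 switches on. It was scarce, at 1.19, 1.39 and 1.45 CPM in vehicle and 1.22, 3.82 and 1.5 CPM in 4OHT cells. The highest value rests on 2 reads of the shallow library, and the deep libraries of both groups overlapped. The fold was 1.03 with a 95% interval of 0.754 to 1.42 (edgeR adjusted p = 0.909). Ddit3 encodes CHOP, a C/EBP family factor linked to cell death under lasting stress. Its levels of 11.4, 10.9 and 10.1 CPM in vehicle and 10.3, 13.4 and 10.8 CPM in 4OHT cells overlapped, with a fold of 0.974 (95% interval 0.845 to 1.12, edgeR adjusted p = 0.833). Of its exon bases, 3.97% overlap the opposite-strand tRNA synthetase gene Mars, which held 53946 counts against 1984 for Ddit3.

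Trib3 and Chac1 are induced by ATF4 and act downstream of it. Trib3 encodes a pseudokinase that feeds back on ATF4, and it stood at 19.3, 17.6 and 19.8 CPM in vehicle and 18.9, 22.9 and 22.8 CPM in 4OHT cells. Replicates 2 and 3 of the 4OHT group lay above the vehicle range and replicate 1 inside it. The log2 fold change was 0.13 (95% interval -0.055 to 0.32, edgeR adjusted p = 0.323). Without 4OHT replicate 1 the log2 fold change was 0.27 and the test passed (edgeR adjusted p = 0.0269), while without 4OHT replicate 3 it was 0.0046, so Trib3 depended on which deep 4OHT library was kept. Chac1 encodes an enzyme that degrades glutathione. At 4.71, 5.63 and 6.40 CPM in vehicle and 5.50, 3.82 and 5.62 CPM in 4OHT cells its groups overlapped, and the lowest value rests on 2 reads. Its fold was 1.01 (95% interval 0.832 to 1.23, edgeR adjusted p = 0.958), whereas the plain mean over libraries was 5.58 ± 0.846 CPM and 4.98 ± 1.01 CPM (SD, n = 3), since the fit gives little weight to the shallow library.

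Asns, asparagine synthetase, is the classic amino acid response gene and was the most abundant of the 10, both in CPM and per exon length. Its levels were 498, 540 and 522 CPM in vehicle and 497, 546 and 560 CPM in 4OHT cells. Replicate 1 was the lowest library of both groups, and the groups overlapped almost fully. The means were 520 ± 20.8 CPM and 534 ± 32.8 CPM (SD, n = 3), a fold of 1.02 with a 95% interval of 0.934 to 1.12 (edgeR adjusted p = 0.771). The shallow library is informative for this gene, since 286 Asns reads were counted in it. Psat1, phosphoserine aminotransferase of the serine pathway, stood at 431, 494 and 492 CPM in vehicle and 436, 483 and 514 CPM in 4OHT cells, with replicate 1 lowest in both groups. Its fold was 1.01 (95% interval 0.911 to 1.12, edgeR adjusted p = 0.926).

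Phgdh, phosphoglycerate dehydrogenase, catalyses the first step of serine synthesis. It stood at 100.2, 102 and 97.7 CPM in vehicle and 93.8, 85.9 and 97.1 CPM in 4OHT cells. All 4OHT libraries lay below all vehicle libraries, the nearest pair by less than 1 CPM, which held for 16.5% of tested genes. The fold was 0.950 (95% interval 0.871 to 1.04, edgeR adjusted p = 0.413). In the GENCODE transcripts, 7 other genes match at least 50% of the Phgdh transcript at 95% identity or more, none of them a row of the count table under its name, so some Phgdh reads may belong to copies. Slc7a11, the cystine importer xCT, was the least abundant of the 10. Its raw counts were 46, 18 and 23 in vehicle and 39, 0 and 14 in 4OHT cells, which is 0.869, 0.896 and 0.876 CPM against 0.713, 0 and 0.457 CPM. The deep 4OHT libraries lay below the vehicle libraries, but on only 39 and 14 reads. Counting error was not computed for these, so their order is uncertain. The 0 of the shallow library allows up to 5.73 CPM (3 reads) and so says nothing about the order. The fold was 0.697 (95% interval 0.469 to 1.03, edgeR adjusted p = 0.184), and 94.1% of tested genes had a higher log2 fold change. On the log2 scale the change was -0.52, and it was -0.96 without 4OHT replicate 1 and -0.32 without 4OHT replicate 3, neither of them called (edgeR adjusted p = 0.0923 and 0.513).

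**Figure D2:**
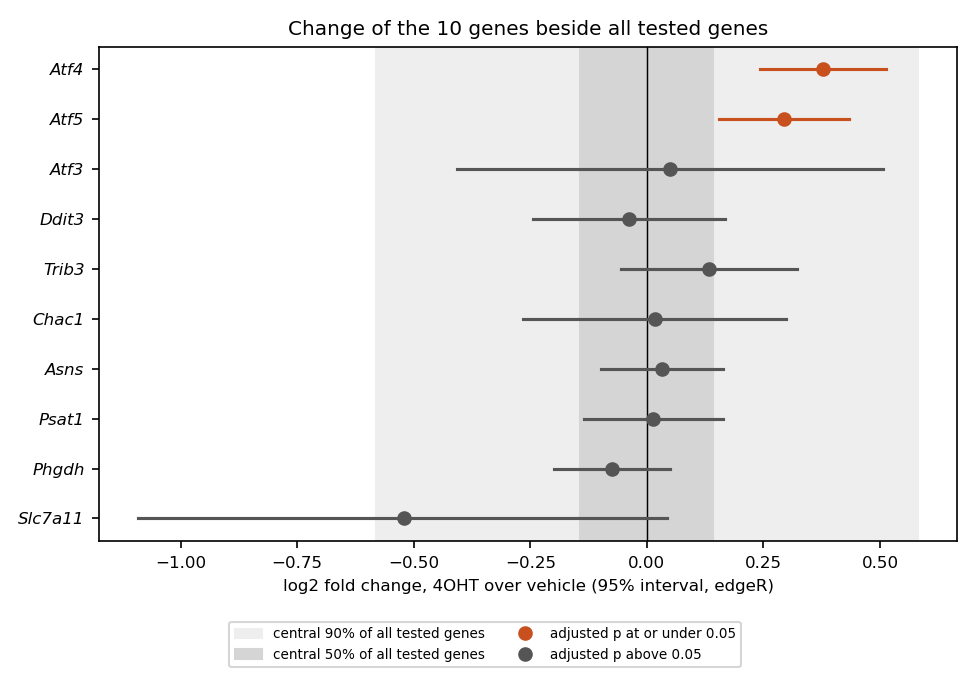
Log2 fold change of 4OHT over vehicle for the 10 genes with its 95% interval from edgeR (orange where the adjusted p is at or under 0.05), over bands that hold the central 50% (-0.14 to 0.14) and the central 90% (-0.58 to 0.58) of the log2 fold changes of all tested genes. Atf4 at 0.38 and Atf5 at 0.29 lie outside the inner band with intervals above 0, Slc7a11 at -0.52 has the widest interval, and the other 7 points lie inside the inner band.

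Per exon length the order in vehicle cells was Asns at 190.2 ± 7.62 RPKM (SD, n = 3), Psat1 at 111 ± 8.44, Atf4 at 44.5 ± 0.856, Phgdh at 40.2 ± 0.791, Atf5 at 33.0 ± 1.21, Trib3 at 8.89 ± 0.543, Ddit3 at 6.29 ± 0.392, Chac1 at 3.41 ± 0.517, Atf3 at 0.624 ± 0.0628 and Slc7a11 at 0.0632 ± 0.00101 RPKM. No neighbours in this order had overlapping vehicle libraries. RPKM here is CPM per kilobase of exon in the GRCm38 gene models. The enzymes Asns, Psat1 and Phgdh thus stood above the effectors Trib3 and Chac1 in vehicle cells. In 4OHT cells the order of the means was the same except that Atf5, at 37.9 ± 5.61 RPKM, stood level with Phgdh, at 37.1 ± 2.31 RPKM, with overlapping libraries. Between vehicle libraries the coefficient of variation was 1.92% for Atf4, 1.97% for Phgdh, 4.01% for Asns and 15.2% for the scarcer Chac1.

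The rise of Atf4 was set against each other member within the same library, a comparison chosen after the values were seen. The log2 ratio of Atf4 to Asns was -2.31 ± 0.07 in vehicle and -1.94 ± 0.19 in 4OHT cells (SD, n = 3), with no overlap (-2.39 to -2.25 against -2.15 to -1.78). The difference of the group means was 0.39 for the ratio to Psat1, 0.52 for Phgdh, 0.32 for Ddit3 and 0.58 for Chac1, again with all 4OHT libraries above all vehicle libraries. Without the shallow 4OHT replicate 2, which holds 2 Chac1 reads, these differences were 0.34 for Asns, 0.36 for Psat1, 0.43 for Phgdh, 0.40 for Ddit3 and 0.36 for Chac1. The highest vehicle and lowest 4OHT ratios were close for Psat1 (-2.04 and -2.02), Chac1 (4.47 and 4.49) and Ddit3 (3.42 and 3.46). They were 0.13 and 0.38 for Phgdh. How many of all tested genes have a ratio to Atf4 without overlap was not counted. The ratios to Atf5, Trib3 and Atf3 overlapped between the groups, with differences of 0.22, 0.22 and -0.11. Without the shallow library, which holds 2 Atf3 reads, those were 0.049, 0.22 and 0.34. All ratios share the Atf4 values and restate them against the other genes, so they were given no test. No ratio to Slc7a11 was formed, since 1 library had no read.

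**Figure D3:**
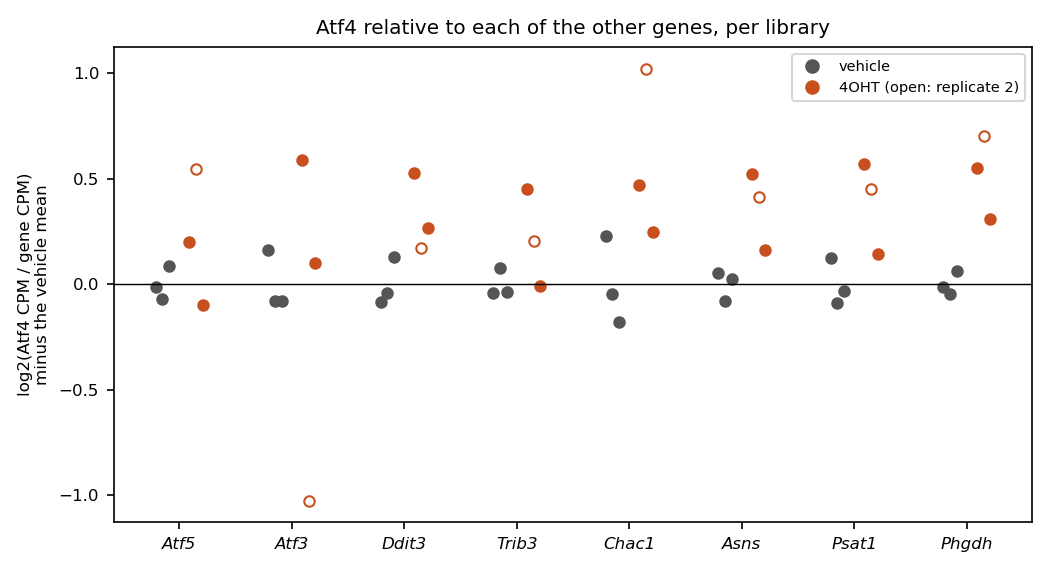
Log2 ratio of Atf4 CPM to the CPM of each other member in the same library, shown as the difference from the vehicle mean of that ratio (grey vehicle, orange 4OHT, open for the shallow replicate 2). The orange points of Ddit3, Chac1, Asns, Psat1 and Phgdh all lie above the grey ones, by 0.32 to 0.58 on average (0.34 to 0.43 without the open points). The nearest orange and grey points of Psat1, Chac1 and Ddit3 lie close together. The orange points of Atf5, Atf3 and Trib3 mix with the grey ones.

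Upstream of ATF4 stand the eIF2 kinases and the other genes that set eIF2 phosphorylation. They were listed together with the subunits of eIF2 itself and of its exchange factor eIF2B. Of 16 tested genes 1 was called higher and 1 lower (12.5%, and 1 and 0 in DESeq2), with a median log2 fold change of -0.020. None of the kinase genes Eif2ak1, Eif2ak2, Eif2ak3 and Eif2ak4 was called in edgeR (log2 fold changes 0.059, -0.072, -0.058 and -0.031). Over all tested genes the share called was 22.4% in edgeR, 6.87% in DESeq2 and 28.2% with the replicate block. These shares are the background of the lists below as well. An unadjusted edgeR p under 0.05 was found for 4868 of the 14458 tested genes. Eif2s2, the beta subunit of eIF2, rose from 542 ± 4.15 to 862 ± 81.4 CPM (edgeR log2 change 0.69 with SE 0.06, adjusted p = 8.17e-08) and was higher in 3 of 3 libraries. Ppp1r15b, which encodes the constitutive partner of the eIF2 phosphatase, went from 251 ± 4.69 to 218 ± 10.8 CPM (edgeR log2 change -0.18, adjusted p = 0.0268). That adjusted p was 0.0683 and 0.118 without vehicle replicates 2 and 3 and 0.0819 in DESeq2. The replicate block gave 2 higher and 1 lower in this list.

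Among 22 tested bZIP partners and relatives of ATF4, 4 were called higher and 3 lower (31.8% against the background of 22.4%). The median log2 fold change was 0.022, and DESeq2 called 0 and 1. Junb, an AP-1 subunit, fell from 43.0 ± 0.325 to 29.2 ± 4.69 CPM (edgeR log2 change -0.69, adjusted p = 6.34e-07), and 7.52% of its exon bases overlap the opposite-strand peroxiredoxin gene Prdx2. Jun, its relative, fell from 5.08 ± 0.241 to 3.56 ± 0.345 CPM (-0.56, edgeR adjusted p = 0.00417, and 0.467 in DESeq2). The shallow 4OHT replicate 2 held 2 Jun reads (3.82 CPM). Cebpa, a C/EBP family member, had levels of 2.07 ± 0.311 and 2.22 ± 1.92 CPM with no read in the shallow library, a log2 fold change of 0.62 and an edgeR adjusted p of 0.0141, which was 0.0645 without vehicle replicate 2, 0.823 in DESeq2 and 0.672 in limma-voom, where the log2 fold change was 0.33. The remaining calls, named after their values were seen, were small: Atf1, Atf6 and Nfe2l2 (log2 fold changes 0.21, 0.18 and 0.19) and Crebzf (-0.18). None of these 4 was called in DESeq2 (adjusted p from 0.234 to 0.359). Without vehicle replicates 1, 2 and 3 in turn the edgeR adjusted p was 0.11, 0.0858 and 0.0629 for Atf1, 0.0672, 0.232 and 0.142 for Atf6, 0.0848, 0.166 and 0.0786 for Nfe2l2, and 0.104, 0.09 and 0.0899 for Crebzf. It was also above the threshold without 4OHT replicate 1 for Atf6 (0.0971), Nfe2l2 (0.0702) and Crebzf (0.122) and without 4OHT replicate 3 for Atf1 (0.0836), and with no filter on low counts for Atf6 (0.0558) and Crebzf (0.0514). In limma-voom it was 0.0861 for Atf6.

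Other stress and signalling genes, taken here as ATF4 targets, went both ways. Of 25 tested, 5 were called higher and 2 lower (28.0% against the background of 22.4%), with a median log2 fold change of 0.059, and DESeq2 called 3 and 2. Cth, cystathionine gamma-lyase of cysteine synthesis, rose from 79.4 ± 4.96 to 129 ± 11.2 CPM (edgeR log2 change 0.70 with SE 0.07, adjusted p = 4.48e-07). The pseudokinase gene Trib1 fell from 22.4 ± 1.3 to 12.6 ± 2.75 CPM (-0.68, edgeR adjusted p = 7.32e-06), and the angiogenic factor gene Vegfa from 21.5 ± 0.911 to 12.0 ± 2.58 CPM (-0.69, edgeR adjusted p = 1.84e-05). Both 4OHT means include 9.55 CPM from 5 reads of the shallow 4OHT replicate 2. The deep 4OHT libraries stood at 13.6 and 14.8 CPM for Trib1 and at 14.7 and 11.8 CPM for Vegfa. The other 4 calls, named after their values were seen, were rises. Sesn2, a stress-induced inhibitor of mTORC1, went from 141 ± 4.23 to 188 ± 6.01 CPM (0.40, edgeR adjusted p = 3.02e-05), and Got1, the cytosolic aspartate aminotransferase, from 227 ± 8.06 to 310 ± 45.5 CPM (0.38, edgeR adjusted p = 0.000627). Gadd45b rose by 0.71 (edgeR adjusted p = 0.000323, and 0.0785 in DESeq2) and Pmaip1, which encodes the death promoter NOXA, by 0.23 (edgeR adjusted p = 0.0201, and 0.13 and 0.14 without vehicle replicates 1 and 2, 0.222 in DESeq2 and 0.0628 in limma-voom).

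The serine and mitochondrial one-carbon pathway beside Psat1 and Phgdh gave 2 genes called higher and 0 lower of 12 tested (16.7%, background 22.4%). The median log2 fold change was -0.0075. At an unadjusted p under 0.05, 3 were higher and 1 lower, DESeq2 called 1 and 0, and the replicate block gave 3 and 1. Mthfd1, the cytosolic folate enzyme, rose from 379 ± 10.1 to 485 ± 23.8 CPM (edgeR log2 change 0.35, adjusted p = 0.000189), and Slc1a4, a neutral amino acid carrier, from 17.7 ± 0.686 to 24.5 ± 3.56 CPM (0.36, edgeR adjusted p = 0.0027, and 0.211 in DESeq2). Of 10 amino acid transporters known as ATF4 targets 1 was called higher and 2 lower, beside 2 and 2 without the shallow 4OHT replicate 2 and 0 and 1 in DESeq2. Slc36a1 fell from 17.8 ± 0.238 to 9.996 ± 3.70 CPM (-0.57, edgeR adjusted p = 9.9e-05, and 0.06 in DESeq2). Its 4OHT mean includes 5.73 CPM from 3 reads of the shallow 4OHT replicate 2. The deep 4OHT libraries stood at 12.0 and 12.3 CPM, and the fitted fold was 0.674. Of the cationic amino acid carriers, Slc7a3 fell from 178 ± 8.74 to 141 ± 13.9 CPM (-0.38, edgeR adjusted p = 0.000339), while Slc7a1 rose from 151 ± 2.34 to 174 ± 5.07 CPM (0.21, edgeR adjusted p = 0.01, which was 0.103 without vehicle replicate 2 and 0.0702 in DESeq2).

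Cytosolic tRNA synthetases, which charge tRNAs with amino acids, were considered in a list known as ATF4 targets and a list of the others. In the first, 2 of 12 were called higher and 0 lower (16.7%, background 22.4%). At an unadjusted p under 0.05 the counts were 3 and 0, and in DESeq2 1 and 0. The median log2 fold change was 0.040, with a range of -0.070 to 0.19. Iars rose from 391 ± 3.23 to 442 ± 19.9 CPM (edgeR log2 change 0.19, adjusted p = 0.0174, and 0.0572, 0.111 and 0.0843 without vehicle replicates 1, 2 and 3). Sars, from 293 ± 12.5 to 338 ± 26.2 CPM, was at the limit (0.17, edgeR adjusted p = 0.0497). Its adjusted p was 0.141, 0.09 and 0.195 without vehicle replicates 1, 2 and 3 and 0.102 without 4OHT replicate 2, and it was above 0.05 with every other normalization or tool tried, and 0.000696 with the replicate block. In the second list 1 of 8 was called higher and 0 lower (12.5%), with a median of -0.053. The counts were 1 and 0 also at an unadjusted p under 0.05 and in DESeq2. Vars rose from 375 ± 2.65 to 442 ± 26.2 CPM (0.24, edgeR adjusted p = 0.00686, and 0.0514 without vehicle replicate 2), and the abundant Kars and Dars had log2 fold changes of 0.078 and 0.031 (edgeR adjusted p = 0.357 and 0.783).

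**Figure D4:**
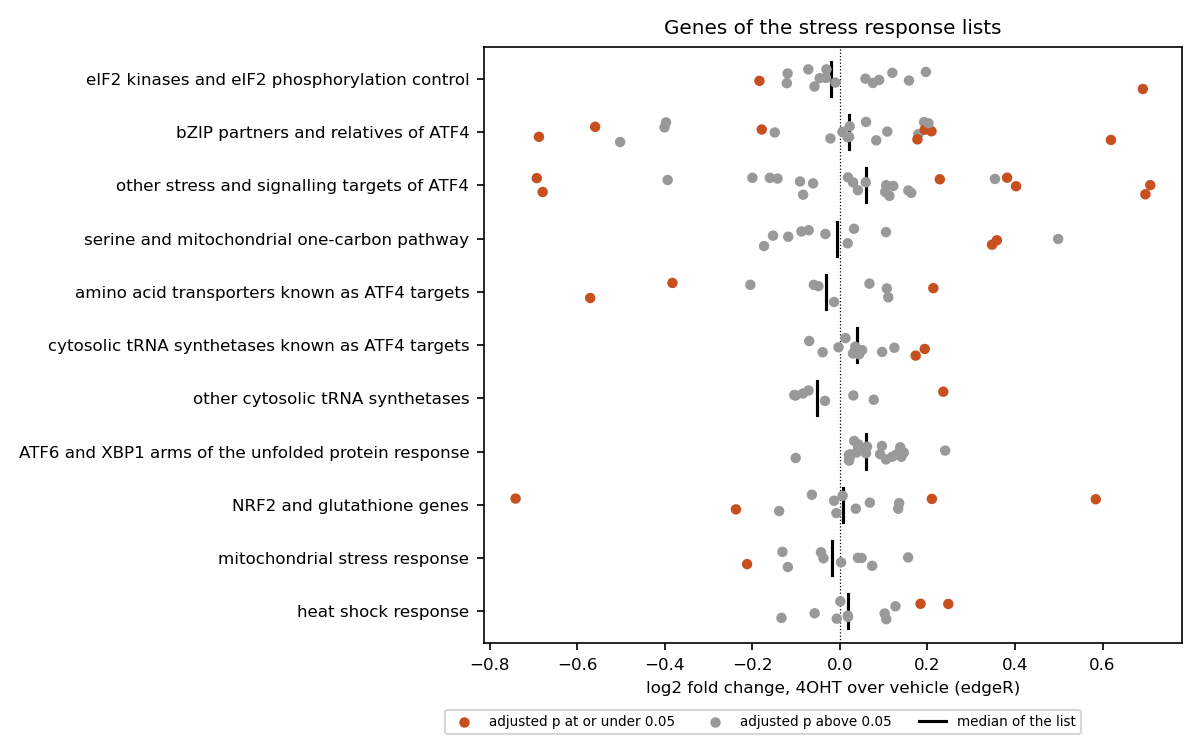
Log2 fold change of 4OHT over vehicle (horizontal axis, edgeR) for every tested gene of the 11 stress response lists, 1 row per list, with orange for an adjusted p at or under 0.05, grey for the rest and a black bar for the list median. The medians lie between -0.053 and 0.060, and the list of the ATF6 and XBP1 arms has no orange point.

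The ATF6 and XBP1 arms of the unfolded protein response, the other branches by which cells answer misfolded protein in the endoplasmic reticulum, gave no call among 21 tested genes. The background was 22.4% of all tested genes. At an unadjusted p under 0.05 edgeR gave 2 higher and 0 lower, DESeq2 called 0, and the replicate block gave 1 higher. The log2 fold change was positive for 20 of the 21 genes (95.2%), beside 49.3% of all tested genes, with a median of 0.060 and a range of -0.10 to 0.24. The chaperone genes Hsp90b1 and Hspa5, the most abundant of the list, stood at 812 ± 35.2 and 814 ± 108 CPM and at 786 ± 24.6 and 800 ± 27.8 CPM, with log2 fold changes of 0.023 and 0.033 (edgeR adjusted p = 0.876 and 0.742).

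In the NRF2 and glutathione list, to which Slc7a11 and Chac1 are linked by their substrates, 2 of 13 tested genes were called higher and 2 lower. That was 30.8% against the background of 22.4%. DESeq2 called 1 and 1, and the median log2 fold change was 0.0063. Gss, glutathione synthetase, fell from 35.4 ± 0.946 to 19.9 ± 2.47 CPM (-0.74, SE 0.07, edgeR adjusted p = 2.69e-07), and 6.68% of its exon bases overlap the opposite-strand gene Acss2. Gpx4, the lipid peroxide-reducing glutathione peroxidase, rose from 158 ± 10.8 to 241 ± 21.04 CPM (0.58, SE 0.07, edgeR adjusted p = 3.24e-06), and its transcript has near-identical copies in 2 other genes (the cut-offs given for Phgdh). Gsr, glutathione reductase, rose by 0.21 (edgeR adjusted p = 0.0144, and 0.1 and 0.0885 without vehicle replicates 1 and 2, and 0.127 in DESeq2). Hmox1, haem oxygenase, named after its value was seen, fell by 0.24 (edgeR adjusted p = 0.02, and 0.132 without vehicle replicate 3, 0.426 in DESeq2 and 0.0553 in limma-voom).

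Of 10 mitochondrial stress genes none was called higher (1 at an unadjusted p under 0.05, 0 in DESeq2) and 1 lower, and the replicate block gave 1 and 2. Clpp, a matrix protease, fell from 93.7 ± 1.18 to 81.8 ± 3.45 CPM (edgeR log2 change -0.21, adjusted p = 0.0151, and 0.0598, 0.0684 and 0.0648 without vehicle replicates 2 and 3 and 4OHT replicate 1, and 0.16 in DESeq2). The matrix chaperones Hspd1 and Hspa9 had log2 fold changes of 0.050 and -0.037. Of 11 heat shock genes 2 were called higher and 0 lower (18.2%, background 22.4%). The counts were 2 and 1 at an unadjusted p under 0.05, 0 and 0 in DESeq2, and 4 and 0 with the replicate block. Bag3, a co-chaperone, went from 52.2 ± 1.5 to 58.4 ± 7.98 CPM (0.25, edgeR adjusted p = 0.0105, and 0.0696 and 0.0582 without vehicle replicates 2 and 3). Over the other tools, factors and filters its adjusted p reached 0.301. The shallow 4OHT replicate 2, at 49.6 CPM on 26 reads, lay below every vehicle library, and the deep 4OHT libraries lay above them. Hsph1, a chaperone of the HSP110 family, went from 429 ± 8.74 to 479 ± 35.9 CPM (0.18, edgeR adjusted p = 0.0326, and 0.116, 0.179, 0.0747 and 0.0635 without vehicle replicates 1, 2 and 3 and 4OHT replicate 1).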

How the data were processed

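The authors deposited 1 table of whole-number read counts per gene symbol for the 6 samples, and the submitters' processing notes name STAR, DESeq and mm9 without versions. Totals differ between the deposited libraries, so the counts were taken as unscaled. For the counting tool, annotation and strand setting, nothing is given in the sources used here. Groups came from the treatment label and replicate numbers from the sample titles, and 0 columns of other samples were present.

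The test was that of edgeR 4.0.16 under R 4.3.3: filterByExpr (minimum count 10) left 14458 genes, TMM factors ran from 0.979 to 1.017, and a quasi-likelihood model had 1 term for treatment. Benjamini-Hochberg adjustment covered every tested gene, and a call needed an adjusted p at or under 0.05. Fold changes compare 4OHT to vehicle (prior count 0.125). Intervals are at the 95% level. Poisson intervals and the limit of 3 reads cover counting error only. The edgeR procedure was tested on simulated data. Alternatives used DESeq2 1.42.0, limma 3.58.1, other factors and filters, and left out each library in turn.

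The members and lists were chosen with earlier results of these data known. Named genes were the 10 members, up to 3 called genes with the smallest adjusted p per list or, with fewer than 2 calls, the 2 most abundant, and Nanog. No 2 libraries agreed within sampling noise. Deviations of same-numbered samples from their group means had correlations of 0.57 (replicate 1), 0.15 (replicate 2) and 0.39 (replicate 3) over 3632 genes, each above 0.1. The numbers may thus pair the samples, although no label says what they mark and vehicle 2 correlated more with 4OHT 3 (0.45). These values cannot decide it, since deviations cancel out within a group and 4OHT replicate 2 is shallow. A fit with the replicate block stands beside the unpaired one. Exon lengths, overlaps and copies (blastn 2.17.0) came from GENCODE vM21 on GRCm38, and promoters from RefSeq on GRCm38.p6. Both builds differ from mm9, so no count was placed by coordinate.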

Additional observations from a re-analysis of the deposited data

How the results depend on the processing

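DESeq2 called 939 genes and limma-voom with quantile normalization 2088, against 3233 in edgeR and 4073 with the replicate block, and 2368 to 3950 on leaving out 1 library at a time. The count of the 10 genes called higher was 2, 1 in DESeq2, 2 with the replicate block and 2 to 3 without 1 library, and the count called lower was 0 in all of these. Atf5 was not called in DESeq2 (log2 fold change 0.27). With 1 library left out the log2 fold changes ran from 0.29 to 0.46 for Atf4 and from 0.24 to 0.34 for Atf5, with every adjusted p at or under 0.0276. Over the same 6 fits they ran from -0.075 to 0.24 for Atf3, -0.084 to 0.0021 for Ddit3, 0.0046 to 0.27 for Trib3, -0.14 to 0.13 for Chac1, -0.030 to 0.098 for Asns, -0.077 to 0.10 for Psat1, -0.10 to -0.052 for Phgdh and -0.96 to -0.32 for Slc7a11. Of the list genes, Dars ran from -0.030 to 0.073 and Hsp90b1 from -0.11 to 0.11. The sign also turned for Chac1 in DESeq2 (-0.037) and for Asns and Psat1 in limma-voom (-0.034 and -0.021), all within their main intervals; the cause was not tested. In an alternative chosen after seeing the data, the difference in the log2 ratio of Atf4 to Atf3 turned from -0.11 to 0.34 without 4OHT replicate 2. Atf3 and Slc7a11 have no value with a mean of at least 50 counts, which they do not reach. The replicate block changed no call among the 10 genes. Depth limits Atf3, Chac1 and Slc7a11 most, with 0 to 2 reads in 4OHT replicate 2.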
